A study of Mus musculus with 9 samples.

Results

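The data concern 10 genes: 9 are known targets of the coactivators YAP and TAZ with the TEAD transcription factors and are not in the list of serum response factor (SRF) targets used here, and the other is Tead1, which encodes a TEAD factor itself. The genes are Amotl1, Amotl2, Ajuba, Lats2, Axl, Crim1, Ptpn14, F3, Nuak2 and Tead1. They were chosen by name, with earlier results of these data known. Every probe set (the array's measuring unit for a transcript) tied by the platform annotation to 1 of these symbols and no other was taken. This gave 22 of the 45101 probe sets on the array and 10 of the 18194 genes with a probe set of their own.

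RNA came from mouse NIH 3T3 fibroblasts, an established embryonic line, and was hybridised to 9 Affymetrix arrays in 3 groups of 3. Every culture, the controls included, had been starved of serum and kept in cycloheximide, which blocks translation, at 3 µg/ml for 2 h. The first group received cytochalasin D at 2 µM for 90 min, the second received latrunculin B at 5 µM together with cytochalasin D at 2 µM for 90 min (the double-drug cultures), and the control cultures received neither. The titles of the second group name latrunculin B alone, whereas their agent label lists both compounds, as does the description of the design, and the agent label was followed. The 3 arrays of each group are numbered 1, 3 and 7 and are described as independent biological replicates. All results therefore refer to 1 cell line, 1 time point and 1 dose of each drug.

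The Hippo pathway is a kinase cascade in which MST kinases activate LATS kinases, and LATS kinases phosphorylate YAP and TAZ so that these stay in the cytoplasm. Unphosphorylated YAP and TAZ enter the nucleus and bind TEAD factors on DNA. Several targets, among them Lats2, Amotl2, Ajuba and Ptpn14, encode proteins that act back on the pathway. In fibroblasts the activity of YAP and TAZ is known to depend on cell shape and actin filaments. SRF is switched by actin in another way: its coactivators, the myocardin-related transcription factors (MRTF), are held by actin monomers (G-actin). Cytochalasin D frees MRTF from G-actin, whereas latrunculin B leaves G-actin able to hold it. The series title speaks of a G-actin switch, and the question for these 10 genes is which of them differed between the drug states.

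Promoter sequence is shown for the 3 genes that come first in the results below, to let the letters be read beside the values. The sequences are the 250 bases before the annotated start, from RefSeq, assembly GRCm38.p6, written 5′ to 3′ on the strand of the gene. F3 lies on the plus strand (chr3:121723287-121723536), Crim1 on the plus strand (chr17:78199998-78200247) and Ajuba on the minus strand (chr14:54577662-54577911). Capitals mark the letters GGAATG or their complement CATTCC, the core of the motif that TEAD factors bind, and the letters TGANTCA, the motif that AP-1 factors bind.
F3: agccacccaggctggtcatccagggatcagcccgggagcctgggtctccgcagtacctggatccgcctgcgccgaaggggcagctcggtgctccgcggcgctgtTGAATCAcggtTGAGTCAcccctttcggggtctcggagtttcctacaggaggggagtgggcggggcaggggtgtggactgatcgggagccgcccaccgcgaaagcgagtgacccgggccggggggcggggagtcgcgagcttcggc
Crim1: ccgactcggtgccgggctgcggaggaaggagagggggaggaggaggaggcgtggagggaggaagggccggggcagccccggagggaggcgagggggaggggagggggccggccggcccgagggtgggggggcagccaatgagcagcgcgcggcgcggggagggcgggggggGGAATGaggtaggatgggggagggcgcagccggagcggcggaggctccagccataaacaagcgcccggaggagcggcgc
Ajuba: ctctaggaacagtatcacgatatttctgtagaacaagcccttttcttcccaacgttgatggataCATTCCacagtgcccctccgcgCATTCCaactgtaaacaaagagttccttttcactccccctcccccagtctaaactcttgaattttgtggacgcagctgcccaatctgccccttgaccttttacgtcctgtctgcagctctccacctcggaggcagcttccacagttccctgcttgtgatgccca

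Of the 10 genes, 8 were matched to 9 promoter windows, each with 250 bases before and 50 after the start. Nuak2 and Tead1 were not matched. On either strand, GGAATG was present in 6 of the 9 windows, those of Amotl2, Ajuba, Crim1, Axl and Ptpn14 and 1 of the windows of Lats2, and in 14.7% of all 32851 windows of this length. Ajuba held it at 2 places, starting 186 and 164 bases before the start, and Crim1 at 1 place, 79 bases before it. The F3 window did not hold GGAATG, but it held TGANTCA at 146 and 135 bases before the start, a motif present in 7.81% of all windows. The CArG box, to which SRF binds, was searched by its usual letters and was present in 0 of the 9 windows and in 1.63% of all windows. A match is a description of letters and was not tested as a binding site, and a missing match says only that the letters are not in these 300 bases.

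Array medians ran from 7.57 to 7.84 on the linear intensity scale, and 21 of the 22 probe sets passed the filter on low values (above the 40th percentile of their own array on at least 3 arrays). The probe set left out was the second of Axl, with a mean of 5.74. A further 7 probe sets had means under 30, so 14 probe sets, which cover all 10 genes, carry most of the description. All 8 fibroblast markers were tested and had medians over 100, with summed intensities of 108895 to 115880 in cytochalasin D cultures, 112177 to 113801 in double-drug cultures and 111813 to 118362 in control cultures. None of the 4 endothelial markers was tested, with 6.0 as their highest value. Among markers of epithelial cells and leukocytes, only Krt14 (81.9 to 187) and Lyz2 (66.0 to 174) had medians over 100, whereas Krt19 and Cldn4 stayed at or below 4.61 and Ptprc at or below 5.27. Csf1r ran from 40.02 to 44.78, and Epcam, Cdh1 and Cd68 reached 16.9, 10.24 and 10.02. No skeletal muscle marker exceeded 8.28. These are bulk samples, so more transcript per cell and more cells with the transcript cannot be told apart.

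The first comparison asks which of the 10 genes differed after cytochalasin D. With group as the only factor, F3 was the only one called, at an adjusted p under 0.05 in limma, and it was higher. With the replicate number as a further factor, Crim1 (1426951_at) was called as well, also higher. F3 encodes tissue factor, the cell-surface receptor for clotting factor VII and the starter of the extrinsic clotting pathway. Its intensity was 8022, 9560 and 9366 in cytochalasin D cultures, 5371, 6729 and 5684 in double-drug cultures, and 4418, 4390 and 4116 in control cultures. Each cytochalasin D array lay above each double-drug array, and each double-drug array above each control array. The means were 8983 ± 837 in cytochalasin D cultures and 4308 ± 167 in control cultures (SD, n = 3 each), a ratio of 2.09. The difference in log2(intensity + 16) was 1.05 (SE 0.10, 95% interval 0.82 to 1.29, adjusted p 0.00455). Within replicate numbers 1, 3 and 7 the differences were 0.86, 1.12 and 1.18. The call held in 18 of 18 alternative settings, with adjusted p from 0.00174 to 0.0454.

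The call on F3 is 1 of 21 probe sets tested, 4.76%, beside 1.57% of all 27010 probe sets tested (1.14% called higher and 0.422% lower). Values of cytochalasin D and control cultures did not overlap for 4 of the 21, 19.0%, beside 11.5% of all probe sets. The 4 were F3, Crim1 (1452253_at) and the dim Tead1 1423434_at, which were higher, and Ajuba, which was lower. For Crim1 and Tead1 the gap was narrow. The lowest cytochalasin D value was 136.5 against a highest control value of 135.6 for Crim1, and 22.8 against 22.5 for Tead1. An unadjusted p under 0.05 in limma was found for 4 of the 21, beside 2752 of all 27010. These were F3, Ajuba, Crim1 (1452253_at) and the dim Lats2 1419679_at. The median difference over the 21 was 0.07, beside -0.00098 over all probe sets tested. Taking for each gene the probe set with the highest mean, differences ran from -0.52 for Ajuba to 1.05 for F3, and 6 of the 10 were positive.

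**Figure D1:**
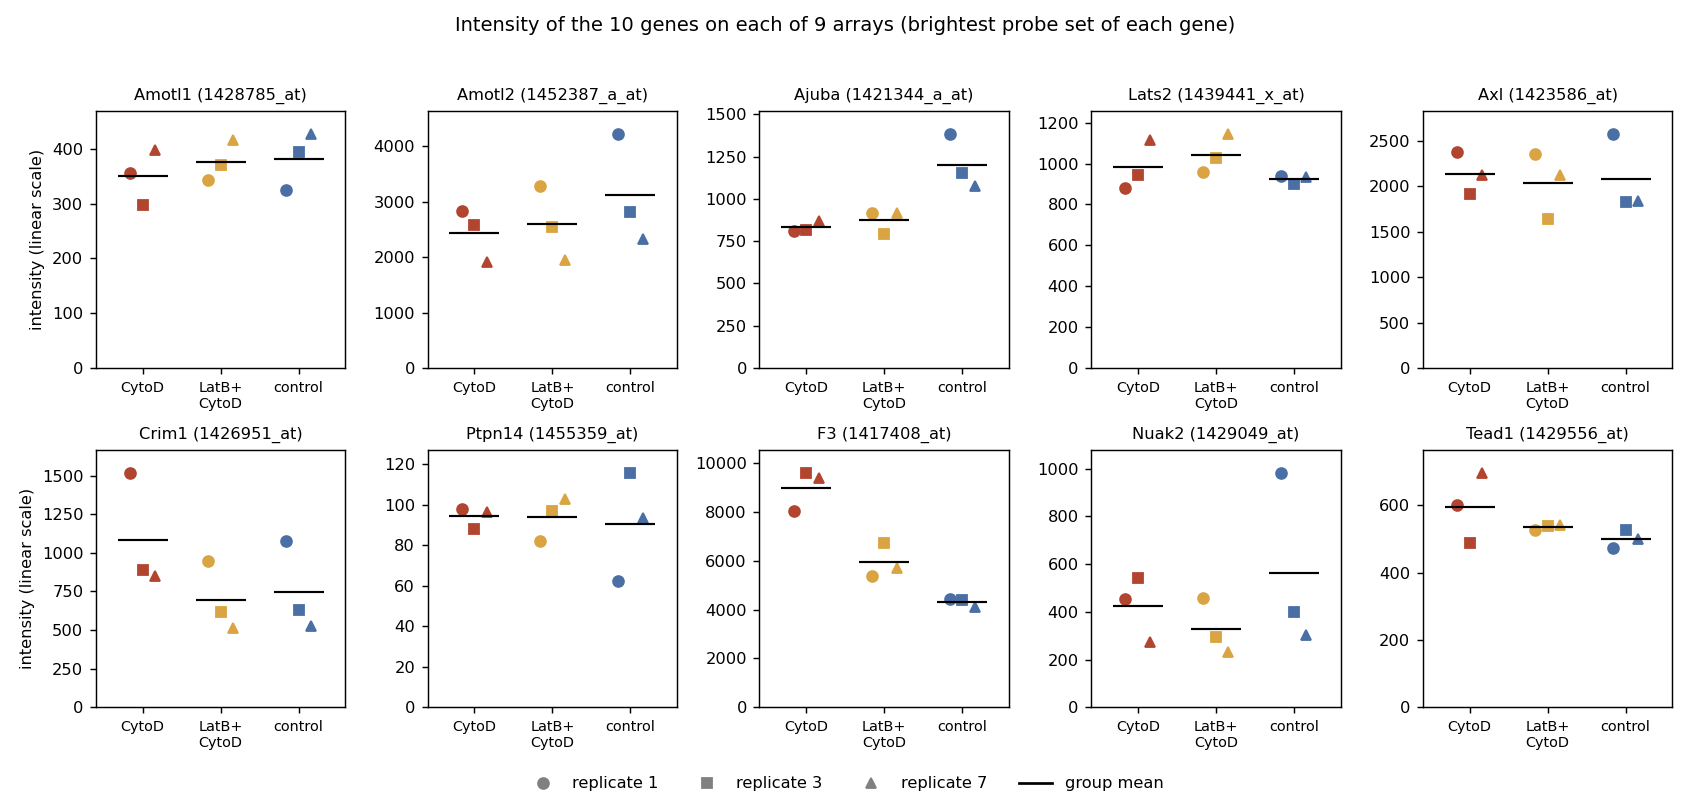
Intensity on a linear scale (vertical axes, starting at 0) of the 10 genes on each of the 9 arrays, 1 probe set a gene, taken for its highest mean; marker shapes give the replicate number and bars the group mean. F3 separates the 3 groups, Ajuba is lower on all 6 drug arrays than on the 3 control arrays, and the arrays numbered 1 stand high for Amotl2, Crim1 and, among controls, Nuak2.

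Ajuba encodes a LIM-domain adaptor that binds LATS kinases at cell junctions and restrains them. Its intensity was 808, 819 and 869 in cytochalasin D cultures, 916, 791 and 914 in double-drug cultures, and 1384, 1152 and 1074 in control cultures. All 6 drug arrays lay below all 3 control arrays. Cytochalasin D cultures averaged 832 ± 32.6 and control cultures 1203 ± 161 (SD, n = 3 each), a log2 difference of -0.52 (SE 0.10, 95% interval -0.76 to -0.28) that missed the threshold (adjusted p 0.0737). The adjusted p ran from 0.0483 to 0.238 over the alternatives, and it passed in 1 of 18, quantile normalization between arrays. The related LIM proteins Limd1 and Wtip had differences of -0.15 and -0.08 and were not called.

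Crim1 encodes a transmembrane protein with cysteine-rich repeats that binds bone morphogenetic proteins. The probe set 1426951_at had 1513, 890 and 850 in cytochalasin D cultures, 949, 616 and 511 in double-drug cultures, and 1076, 628 and 527 in control cultures. In each group the array numbered 1 was the highest, and within each number the cytochalasin D array was above both others. The log2 difference between cytochalasin D and control cultures was 0.55 (SE 0.37, adjusted p 0.778), and within numbers 1, 3 and 7 it was 0.49, 0.49 and 0.67. With single arrays left out it ran from 0.29 to 0.85. With the replicate number in the limma model this difference was called (SE 0.05, adjusted p 0.0116), where 1044 of all 27010 probe sets were. The numbers were not taken to pair the arrays of this comparison. The second probe set, 1452253_at, had 136.5, 173 and 195 in cytochalasin D cultures, 148, 106 and 123 in double-drug cultures, and 135.6, 124 and 97.3 in control cultures. Its values in cytochalasin D cultures lay just above those in control cultures (difference 0.45, SE 0.17, adjusted p 0.432), but within number 1 the difference was 0.01, against 0.43 and 0.90 in numbers 3 and 7. This probe set was not called with the replicate number in the limma model either (adjusted p 0.326).

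**Figure D2:**
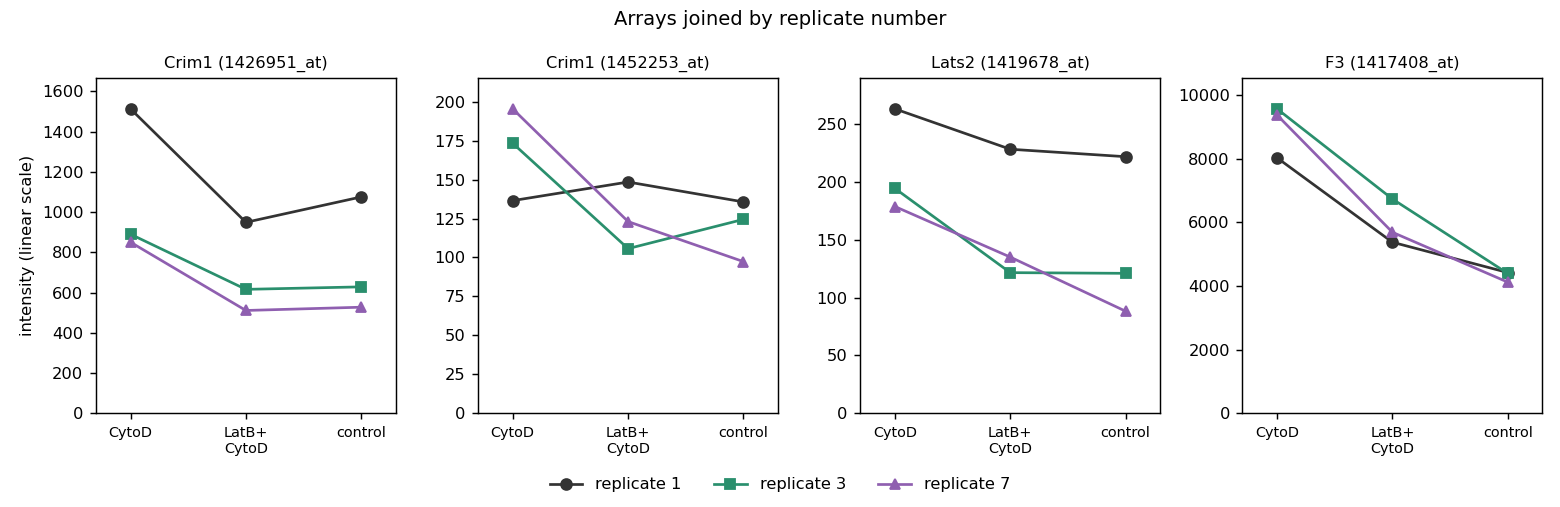
Intensity on a linear scale (vertical axes, starting at 0) in the 3 groups for 4 probe sets, with lines joining arrays of the same replicate number. The 3 lines of Crim1 1426951_at run side by side at different heights, number 1 highest, whereas those of Crim1 1452253_at cross, and the lines of F3 descend from cytochalasin D to control.

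Axl is a receptor tyrosine kinase whose ligand is Gas6. It had 2377, 1914 and 2128 in cytochalasin D cultures, 2355, 1635 and 2127 in double-drug cultures, and 2576, 1828 and 1841 in control cultures. The 3 groups overlapped, and cytochalasin D and control cultures differed by 0.05 with a 95% interval of -0.39 to 0.49. Among its relatives, Tyro3 and Mertk had differences of 0.04 and -0.03, neither called, and Gas6 did not pass the filter on low values. Mertk was dim, with means of 7.53 in cytochalasin D, 8.96 in double-drug and 8.11 in control cultures, so it can show little.

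Lats2 encodes the kinase that phosphorylates YAP and TAZ and is a target of both, and its 6 probe sets did not move alike. The one with the highest mean, 1439441_x_at, had 883, 943 and 1118 in cytochalasin D cultures, 960, 1028 and 1145 in double-drug cultures, and 939, 899 and 934 in control cultures. Cytochalasin D and control cultures overlapped there, with a log2 difference of 0.08 (95% interval -0.15 to 0.31). The probe set 1437101_at gave 0.17 (-0.04 to 0.38), and 1419678_at gave 0.58 with a much wider interval (-0.26 to 1.42). The values of 1419678_at were 263, 194 and 179 in cytochalasin D cultures, 228, 122 and 135 in double-drug cultures, and 222, 121 and 88.2 in control cultures, with number 1 the highest of each group, and its difference ran from 0.32 to 0.92 with single arrays left out. The dim 1419679_at, with 20.9, 22.8 and 17.3 in cytochalasin D cultures against 19.3, 6.70 and 5.98 in control cultures, gave 0.48 (adjusted p 0.41), and it was called only without control replicate 1 (difference 0.70, adjusted p 0.0148). The other probe sets, 1425420_s_at and 1426156_at, had means under 30 and differences of -0.09 and -0.03. Its paralogue Lats1 averaged 1229 ± 96.9 in cytochalasin D cultures and 986 ± 17.5 in control cultures (difference 0.31, adjusted p 0.0725).

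Amotl1 and Amotl2 are angiomotin family scaffolds that bind actin filaments and hold YAP out of the nucleus. Amotl1 (1428785_at) had 356, 297 and 398 in cytochalasin D cultures, 342, 371 and 416 in double-drug cultures, and 325, 394 and 427 in control cultures, with the groups intermingled. Its difference between cytochalasin D and control cultures was -0.12 (-0.45 to 0.21), and its other probe sets gave -0.03 and 0.07. Amotl2 had 2831, 2573 and 1907 in cytochalasin D cultures, 3290, 2539 and 1949 in double-drug cultures, and 4222, 2812 and 2325 in control cultures. Within every number the Amotl2 control array was the highest, but the spread between numbers was wider than that gap, and the difference of -0.33 (-1.01 to 0.35) was not called (adjusted p 0.866). It ran from -0.52 to -0.089 as single arrays were left out. The family's founder, Amot, gave -0.10 (adjusted p 0.982).

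Ptpn14 is a protein tyrosine phosphatase that binds YAP and keeps it in the cytoplasm. Its one probe set above 30, 1455359_at, had 98.1, 88.3 and 96.7 in cytochalasin D cultures, 82.1, 97.0 and 103 in double-drug cultures, and 62.5, 116 and 93.5 in control cultures. The control arrays spanned the values of both drug groups, and the difference of 0.08 (-0.35 to 0.51) between cytochalasin D and control cultures had either sign across alternatives.

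Nuak2, a kinase related to AMP-activated kinase that acts on myosin phosphatase, had the widest intervals of the 21 probe sets in all 3 comparisons. Its intensity was 453, 544 and 275 in cytochalasin D cultures, 457, 293 and 234 in double-drug cultures, and 980, 401 and 305 in control cultures. Control replicate 1 stood far above the other arrays, and the difference of cytochalasin D against control was -0.27 (-1.41 to 0.88) with it and 0.21 without it. Its relative Nuak1 averaged 234 ± 27.6 in cytochalasin D cultures and 363 ± 85.0 in control cultures (difference -0.58, adjusted p 0.278).

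Tead1 encodes a DNA-binding partner of YAP and TAZ. It had 601, 490 and 695 (1429556_at) in cytochalasin D cultures, 526, 538 and 543 in double-drug cultures, and 475, 526 and 501 in control cultures. Replicate 3 of the cytochalasin D cultures lay within the control range, and the difference of 0.23 (-0.04 to 0.50) was not called (adjusted p 0.607) and ran from 0.11 to 0.36 with single arrays left out. Its second, dim probe set gave 0.11. Tead2, Tead3 and Tead4 gave -0.06, 0.10 and -0.17, none called.

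**Figure D3:**
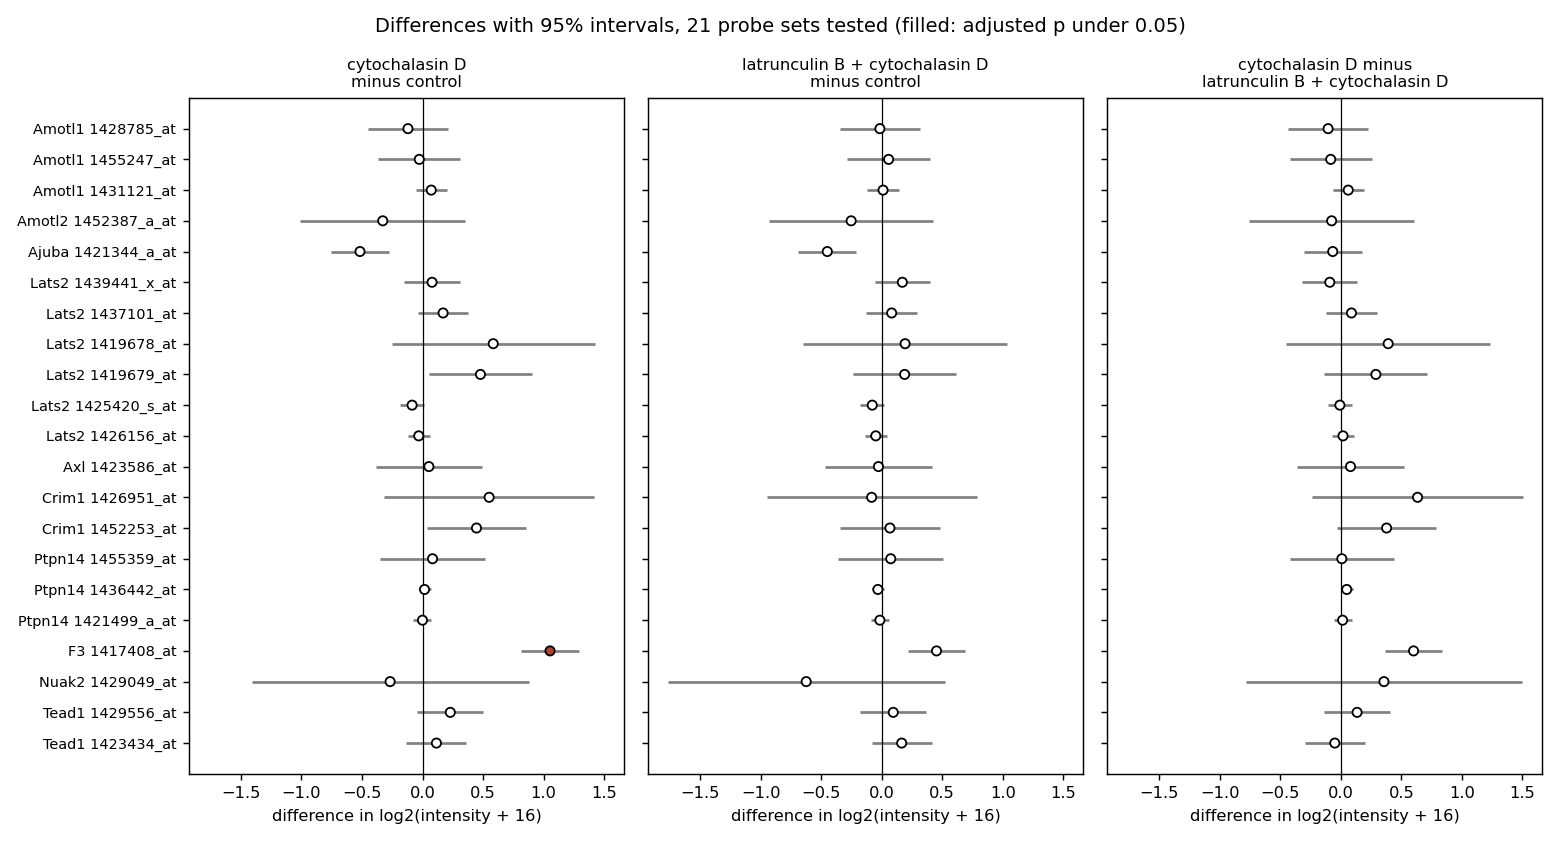
Difference in log2(intensity + 16) (horizontal axis) with its 95% interval for the 21 probe sets tested, in the 3 comparisons. The only filled point, at an adjusted p under 0.05, is F3 in cytochalasin D against control, at 1.05. Intervals are widest for Nuak2, Crim1 1426951_at, Lats2 1419678_at and Amotl2.

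The second comparison sets the double-drug cultures against control cultures. None of the 21 probe sets was called in limma, beside 0.111% of all probe sets, and 2 had an unadjusted p under 0.05, beside 5.28%. Those 2 were F3 and Ajuba. F3 averaged 5928 ± 711 in double-drug cultures and 4308 ± 167 in control cultures (SD, n = 3 each), a difference of 0.45 (0.22 to 0.69, adjusted p 0.299). Within numbers 1, 3 and 7 the F3 difference was 0.28, 0.61 and 0.46. Ajuba averaged 874 ± 71.4 in double-drug cultures and 1203 ± 161 in control cultures, a difference of -0.45 (-0.69 to -0.21, adjusted p 0.312). Values did not overlap for 3 of the 21, 14.3%, beside 8.08% of all probe sets: F3 and Lats2 (1439441_x_at, 0.17, -0.06 to 0.40) were higher and Ajuba lower. The other Lats2 probe sets overlapped, among them 1437101_at (0.08) and 1419678_at (0.19). For this comparison the same-numbered arrays deviated together, and with the replicate number in the model the count over all probe sets was 123 (0.455%) in place of 30, but the count among the 21 was again 0.

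The third comparison sets cytochalasin D cultures against double-drug cultures, which differ by latrunculin B. F3 was higher on every cytochalasin D array, by 0.60 (0.36 to 0.84), and by 0.58, 0.51 and 0.72 within numbers 1, 3 and 7, but it did not pass over all probe sets (adjusted p 0.133, and 0.086 with the replicate number in the model). Crim1 (1426951_at) averaged 1085 ± 372 in cytochalasin D cultures and 692 ± 229 in double-drug cultures, a difference of 0.63 (SE 0.37, -0.23 to 1.5) that was not called, but it was called with the replicate number in the model (SE 0.05, adjusted p 0.0350), where 0.367% of all probe sets were. Within numbers the difference was 0.66, 0.52 and 0.72, and with single arrays left out it ran from 0.37 to 0.88. The other Crim1 probe set was not called in either model (difference 0.38, adjusted p 0.642 with the replicate number), with -0.11, 0.64 and 0.60 within numbers. None of the 21 was called without the replicate number, beside 0.259% of all probe sets, and 1, F3, had an unadjusted p under 0.05, beside 4.22%. F3 and the dim Lats2 1419679_at were the 2 of 21 (9.52%, beside 6.26%) whose values did not overlap. Ajuba differed by -0.07 (-0.31 to 0.17). The 3 comparisons share arrays in pairs, so they are not independent.

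Other YAP/TAZ targets were summarised from a list of 16 genes, of which all 16 were tested. This list too was chosen with earlier results of these data known. In cytochalasin D against control cultures 3 of the 16 were called higher and 0 lower, beside 1.37% and 0.561% of all 12651 genes tested. The list median was -0.01, beside -0.0045 over all genes. The 3 were Ccn1 and Ccn2, secreted matricellular proteins, and Ankrd1, a nuclear ankyrin repeat protein, all of them known as SRF targets as well. Ccn1 averaged 11555 ± 1017 in cytochalasin D cultures, 8950 ± 782 in double-drug cultures and 2754 ± 295 in control cultures. It differed by 2.06 between cytochalasin D and control cultures (adjusted p 0.000923). Ccn2 averaged 20696 ± 2803, 7691 ± 556 and 5142 ± 1084 in the same order of groups, a difference of 2.02 (adjusted p 0.00261). Ankrd1 averaged 8906 ± 1154, 2251 ± 311 and 1456 ± 396, a difference of 2.63 (adjusted p 0.00261). The other 13 genes lay between -0.19 and 0.19. Among them Igfbp3, Fjx1 and Tgfb2 had group means of 7.43 to 7.94, near the array medians, and Nt5e had 11.57 to 11.98. The pseudocount of 16 holds differences of such dim genes near 0. They can show little, and they enter the list median.

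In the double-drug cultures against control, Ccn1 was the only one of the 16 called (difference 1.70, adjusted p 0.0172), a call lost in 8 of 18 alternatives. Between cytochalasin D and double-drug cultures Ccn2 (1.42, adjusted p 0.0377) and Ankrd1 (1.98, adjusted p 0.0336) were called. These calls held in only 6 and 7 of 18 alternatives, in that order. Neither gene was called with the replicate number in the model (adjusted p 0.086 and 0.0534).

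Of the genes that make up the Hippo pathway, 21 listed and 20 tested, 0 were called in each of the 3 comparisons, beside 1.93%, 0.142% and 0.332% of all genes tested. A count of 0 among 20 genes lies near these shares and is no result about the list. Its members had medians of -0.03, 0.02 and -0.02 in the order of the comparisons above. In cytochalasin D against control the differences ran from -0.37 to 0.73, and 8 of the 20 were positive. Frmd6 (difference 0.47) was called there with the replicate number in the model (adjusted p 0.0326), where 1044 of all 27010 probe sets were. Yap1 averaged 1040 ± 100 in cytochalasin D cultures, 1078 ± 55.3 in double-drug cultures and 1109 ± 21.4 in control cultures, and cytochalasin D against control gave -0.10 (adjusted p 0.828). Wwtr1, which encodes TAZ, averaged 1301 ± 44.6, 1305 ± 55.7 and 1093 ± 86.5, with 0.25 in cytochalasin D cultures (adjusted p 0.148) and 0.25 in double-drug cultures (adjusted p 0.357) against control. Paralogues and binding partners of the 10 genes had 0 calls among 12 tested, of 14 listed, which lies equally near these shares (Lats1, Tead2, Tead3 and Tead4 are counted in both lists). Of 20 MRTF-SRF targets, 18 were called higher with cytochalasin D, beside 1.37% of all genes. The list was chosen with earlier results of these data known, so this count is a description and gives no independent support. All 20 differences were positive, with a median of 1.71. Srf itself averaged 1475 ± 311 in cytochalasin D cultures, 827 ± 164 in double-drug cultures and 187 ± 30.9 in control cultures. The 6 with the smallest adjusted p were Cnn1, Actg2, Tpm4, Csrp1, Acta1 and Actg1, which encode actins and actin-associated proteins, with differences from 0.47 (Actg1) to 5.00 (Acta1). In double-drug cultures against control the median was 0.69, and Srf, Actg1, Tpm4 and Csrp1 were called. The call of Srf held in 4 of 18 alternatives, and leaving out any single array left 0 to 3 of the 20 called. In cytochalasin D against double-drug cultures the median was 0.83, and Acta1, Actg2, Cnn1, Fhl1 and Csrp1 were called, with 2 to 5 called when single arrays were left out. With the replicate number in the model Csrp1 was called in neither (adjusted p 0.0744 and 0.0831), Lima1 was called in both (0.00859 and 0.0234), and Pdlim7 (0.0296) and Tgfb1i1 (0.0383) were called in double-drug cultures against control.

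**Figure D4:**
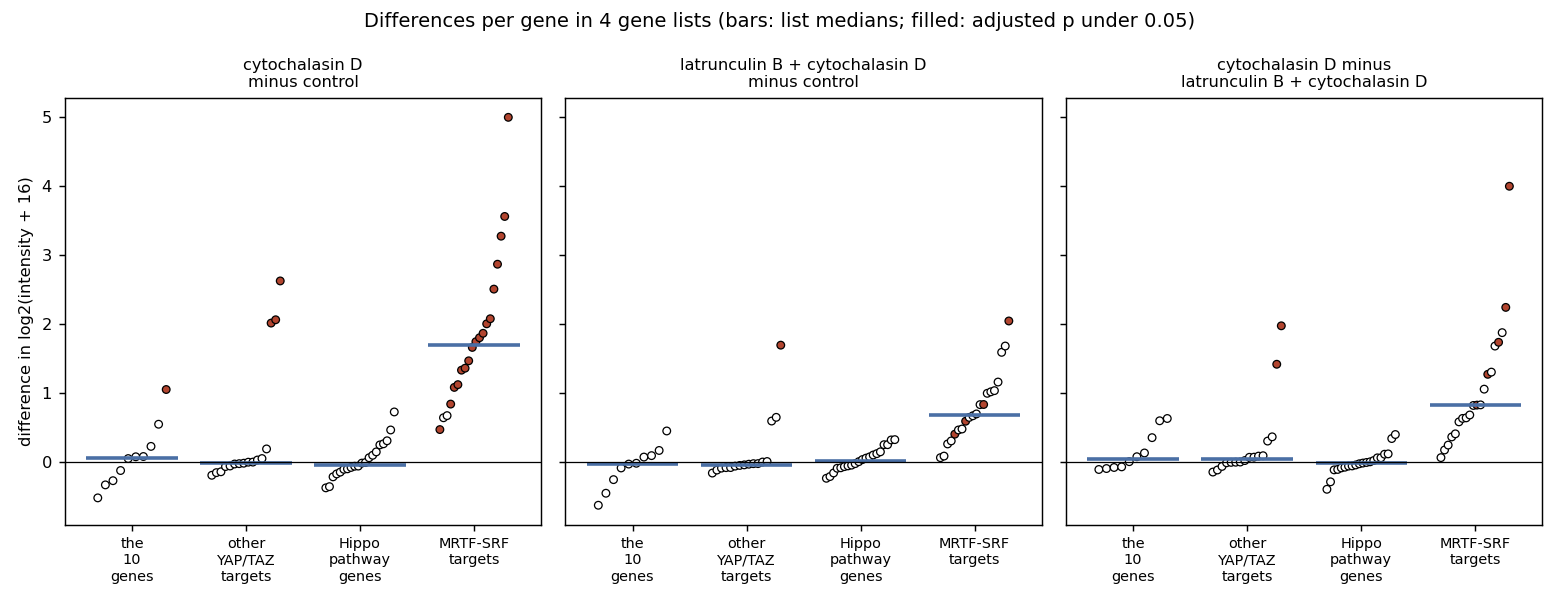
Difference in log2(intensity + 16) per gene (vertical axis) in 4 gene lists and 3 comparisons; each point is a gene, filled at an adjusted p under 0.05, and bars are list medians. In cytochalasin D minus control the medians are 0.07 for the 10 genes, -0.01 for other YAP/TAZ targets, -0.03 for Hippo pathway genes and 1.71 for MRTF-SRF targets. All lists were chosen with earlier results of these data known. The other YAP/TAZ targets include the dim genes Igfbp3, Fjx1, Tgfb2 and Nt5e, which can show little.

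Arrays numbered 1 stood apart for some of the 10 genes. Of the 14 probe sets with means of 30 or more, 5 had their highest value in replicate 1 of all 3 groups: Amotl1 1455247_at, Amotl2, Lats2 1419678_at, Axl and Crim1 1426951_at. Over all 16645 tested probe sets with such means the share was 22.2%, so the trait is not particular to these genes. F3 and Ajuba were not among the 5. Leaving out the 3 arrays numbered 1, a setting chosen after seeing the data, gave 1.15 for F3 in cytochalasin D against control (adjusted p 0.0454), and F3 was again the only one called.

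The pattern of F3 over the 9 arrays was set against that of 11847 genes by the root mean square difference of centred log2 values. The closest were Wdfy1, an endosomal adaptor protein (0.0868), Eogt, a glycosyltransferase of the endoplasmic reticulum (0.10), and Msrb3, a methionine sulfoxide reductase (0.114). Wdfy1 averaged 757 ± 85.7 in cytochalasin D cultures, 530 ± 41.6 in double-drug cultures and 394 ± 37.0 in control cultures. Eogt averaged 270 ± 22.5, 159 ± 12.3 and 121 ± 7.45, and Msrb3 1903 ± 379, 1202 ± 143 and 886 ± 66.5, in the same order of groups. They were chosen for their likeness to F3 on these arrays, so their differences between cytochalasin D and control cultures (0.91, 1.06 and 1.07) are a description of that choice.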

How the data were processed

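The authors deposited 1 normalized intensity for each probe set on each array, on a linear scale as judged from the values. MAS5 and GCRMA are both named, per the submitters' processing notes, and which of them gave these intensities is not stated there. MAS5 tends to scatter and GCRMA to compress the differences of dim probe sets. No value was missing, and none of the 36 pairs of arrays was identical. Symbols came from the platform annotation. A probe set with 2 or more symbols was left out, which removed 1 that names Lats2 beside Xpo4.

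The deposited intensities were changed here to log2(intensity + 16), which shrinks the differences of dim probe sets. Probe sets above the 40th percentile of their own array on at least 3 arrays were tested, 27010 in all, leaving out 64 control probe sets. Models were fitted with limma 3.58.1 (lmFit, eBayes) in R 4.3.3 on all 9 arrays, with group as the only factor, tests two-sided, Benjamini-Hochberg adjustment over all probe sets tested and a call at adjusted p under 0.05. The code was tested on simulated data. Intervals are unadjusted 95% intervals of the model, and the number of arrays limits their precision.

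Deviations from the group means correlated between same-numbered arrays by 0.71, 0.0763 and 0.653 (numbers 1, 3 and 7) for cytochalasin D with control, by 0.834, 0.413 and 0.663 for double-drug with control, and by 0.726, 0.411 and 0.756 for cytochalasin D with double-drug cultures. The numbers were taken to pair the arrays in the last 2 comparisons, where every correlation exceeded 0.1, from the data and not from the labels.

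The 10 genes and all lists were chosen with earlier results of these data known. All 10 genes are named with their probe sets. From each list, called genes with the smallest adjusted p (at most 6) are named, and Ccn1, Ccn2, Ankrd1, Srf, Yap1, Wwtr1, Lats1 and Amot always. Outside this rule, relatives of the 10 genes are named by kinship, and Lima1, Pdlim7, Tgfb1i1 and Frmd6 for their calls with the replicate number in the model. For a called gene, the 3 genes with the most similar pattern are named. Alternatives were 2 other pseudocounts, no filter, quantile normalization, median scaling, the replicate number as a factor, 6 arrays only, a trended robust prior, leaving out each array, and, added later, leaving out all arrays numbered 1.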

Additional observations from a re-analysis of the deposited data

How the results depend on the processing

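F3 kept its call in cytochalasin D against control under all 18 alternatives, and the 10 genes had 1 probe set called there except in these settings. Quantile normalization gave 2 (Ajuba also, difference -0.54, adjusted p 0.0483), the replicate block gave 2 (Crim1 1426951_at also, SE 0.05, adjusted p 0.0116), and leaving out single arrays gave 1 to 2 (Lats2 1419679_at without control replicate 1). The numbers were not taken to pair the arrays of that comparison, since number 3 correlated by 0.0763, although numbers 1 and 7 correlated by 0.71 and 0.653. Control replicate 3 correlated better with cytochalasin D replicate 7 (0.391) than with cytochalasin D replicate 3. In cytochalasin D against double-drug cultures the replicate block gave 1 in place of 0 (Crim1 1426951_at). The block changed no other call among the 10 genes.

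Of 62 results of single probe sets under 18 alternatives each, 1116 values in all, 1019 kept direction and side of the threshold, 56 lost the call, 4 gained it and 37 turned sign. The 37 lay in 16 results, the largest 0.27 in size, and 0 of the 37 were called. Leaving out the arrays numbered 1 turned Axl in double-drug against control (0.024), Ptpn14 in all 3 comparisons (-0.15, -0.049 and -0.097) and Nuak2 in cytochalasin D against control (0.14). Quantile normalization and median scaling turned Ptpn14 in cytochalasin D against double-drug cultures (-0.0069 and -0.0090). With single arrays left out, ranges that crossed 0 were, in cytochalasin D against control, -0.18 to 0.0028 for Amot, -0.031 to 0.21 for Axl, -0.017 to 0.15 for Lats2 1439441_x_at, -0.60 to 0.21 for Nuak2 and -0.12 to 0.25 for Ptpn14. In double-drug against control they were -0.16 to 0.087 for Amot, -0.12 to 0.067 for Amotl1, -0.14 to 0.14 for Axl, -0.33 to 0.21 for Crim1 1426951_at, -0.053 to 0.17 for Crim1 1452253_at, -0.071 to 0.52 for Lats2 1419678_at and -0.13 to 0.24 for Ptpn14. In cytochalasin D against double-drug cultures they were -0.20 to 0.0035 for Amotl1, -0.26 to 0.11 for Amotl2, -0.070 to 0.19 for Axl and -0.073 to 0.067 for Ptpn14.

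Over all probe sets, the count called in cytochalasin D against control was 423, with 1044 under the replicate block, 159 with 6 arrays, and 231 to 487 with single arrays left out. In double-drug against control it was 30, with 123 under the block, 62 with median scaling, 14 to 15 with pseudocount 64 or quantile normalization, 8 with no filter, 1 with 6 arrays, 0 without the arrays numbered 1, and 0 to 42 with single arrays left out. In cytochalasin D against double-drug cultures it was 70, with 16 with no filter, 9 with 6 arrays, 6 without the arrays numbered 1, and 3 to 59 with single arrays left out. Calls among MRTF-SRF targets fell to 12 of 20 without the arrays numbered 1 in cytochalasin D against control. They ranged from 0 to 6 in double-drug against control and from 1 to 5 in cytochalasin D against double-drug cultures. Calls among other YAP/TAZ targets were 3 throughout in cytochalasin D against control, 0 to 1 and 0 to 2 in the other comparisons. For Hippo pathway genes the block gave 1 (Frmd6) in cytochalasin D against control. The cause of these changes was not tested. Dim probe sets, 8 of 22, can show little at this signal.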
